A study of Homo sapiens with 79 samples.

Results

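Formaldehyde RNA immunoprecipitation and sequencing (fRIP-seq) of HNRNPU was set against input RNA in K562, an established human leukemia cell line with erythroid and megakaryocytic features. The 6 libraries considered, of 79 in the series, were the 3 labelled HNRNPU and the 3 labelled as the first input set, and they were chosen by these labels. The study asked which RNAs chromatin-associated proteins and RNA-binding proteins contact in living cells. Cells were cross-linked lightly (0.1% formaldehyde for 10 min) and lysed. RNA recovered with an Abcam antibody against HNRNPU, which is the fRIP, was then sequenced beside RNA from the lysate, which is the input, after ribosomal RNA had been removed. No cells were treated or edited, and no precipitation with a control antibody was used here. For comparison, the 3 fRIP libraries of HNRNPH1, the other hnRNP protein of the panel (Bethyl antibody), came from the same cell line. The labels do not say which input belongs to which fRIP. The input level in the authors' own comparison of HNRNPU with input lay nearest to set 1, with an SD of the log2 difference of 0.0352 over 16626 genes against 0.552 for set 2 and 0.575 for set 3, and the other 6 inputs were used as a check.

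HNRNPU, also known as SAF-A, is an abundant nuclear RNA-binding protein that associates with chromatin and the nuclear matrix, and it contacts RNA through a glycine-rich RGG domain. It has been described at nascent transcripts, at nuclear noncoding RNAs and in the control of splicing, including that of the minor class of introns. HNRNPH1 is an hnRNP of another kind, with RNA recognition motifs that bind runs of G, and it acts on splice site choice.

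The deposited values are FPKM, counts of fragments scaled by transcript length and library size, given for 48453 genes and 185661 transcripts. FPKM are shares of a library, so the amount of RNA that each precipitation recovered was not measured. The depth was read from the steps in which low values rise, and it came to 6.69M, 8.52M and 8.18M fragments for the HNRNPU libraries and to 20.5M to 22.5M for input set 1. Log2(FPKM + 1) values had Pearson correlations of 0.931 to 0.944 among the HNRNPU libraries, of 0.970 to 0.980 among the inputs and of 0.897 to 0.927 between them, as a description across genes, which are not independent. All 10 markers of the erythroid and megakaryocytic features of K562 were expressed. Of 9 markers of other cell types, 6 did not pass a filter on low values. Of the 3 that did, 1 was enriched as deposited, after centring and against all 9 inputs. CD4 was under 2 FPKM, and EPCAM held 26.9, 27.6 and 35.7 FPKM in HNRNPU fRIP and 26.6, 31.9 and 30.5 FPKM in input, so the groups overlapped.

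As deposited, many more genes were enriched in HNRNPU fRIP than depleted. Tests were made with limma on log2(FPKM + 1) in genes that reached 1 FPKM in 3 or more of 15 libraries (HNRNPU, HNRNPH1 and the 9 inputs). A call needed an adjusted p (Benjamini-Hochberg) below 0.05 together with a log2 fold change beyond 1 in size. Of the 20850 genes, 2063 (9.89%) were enriched and 257 (1.23%) were depleted. The 20850 log2 fold changes had a median of 0.14. When each library was centred on its median, this moved by -0.31, and the counts became 1079 (5.18%) enriched and 988 (4.74%) depleted, with 88.9% of calls being enrichments before and 52.2% after. All 1079 genes enriched after centring were also enriched as deposited, and all 257 genes depleted as deposited were depleted after centring. Against all 9 inputs, 3284 genes (15.8%) were enriched and 643 (3.08%) depleted, of which 2020 and 204 were also called against set 1. HNRNPH1 fRIP, over the same set 1, had 4985 genes (23.9%) enriched and 1621 (7.77%) depleted. The balance thus rests on the scale. A gene whose input is low could pass the filter through its fRIP values alone, so shares are also given at a fixed level in input set 2, whose libraries do not enter the contrast.

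Intron-bearing isoforms took a larger share of their genes in every HNRNPU library than in any input of set 1. GENCODE lists, for many genes, isoforms of the class retained intron, which hold intron sequence that the coding isoforms splice out. Over 6530 genes with such an isoform and at least 1 FPKM in each of the 6 libraries, these isoforms held on average 30.7%, 30.25% and 28.7% of the FPKM of their gene in the HNRNPU libraries. In input they held 24.1%, 22.9% and 22.9%. The libraries of the groups did not overlap. The means were 29.9% ± 1.09 and 23.3% ± 0.669 (SD, n = 3 each), a difference of 6.60 percentage points (exact permutation test, two-sided; p = 0.1, and 3 libraries against 3 cannot reach a smaller one). Against all 9 inputs the difference was 9.37 points. These inputs come in 3 sets, and set 1 stands apart from sets 2 and 3, which overlap at 18.4% to 19.7%. They are thus not 9 like replicates and no p is given. The share in HNRNPH1 fRIP was higher still, 38.6%, 38.1% and 37.1%, and did not overlap with that of HNRNPU.

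The difference between retained-intron and coding isoforms does not rest on the scale between libraries, but its split into gain and loss does. In 5045 genes with both kinds at a mean of 1 FPKM, the summed retained-intron FPKM had a median log2 change of 0.34 and the summed coding FPKM one of -0.22. With each library centred on the median of its isoforms the medians were 0.19 and -0.37, and centred on that of its genes they were 0.03 and -0.53. As deposited both signs held in each library, with 0.43, 0.36 and 0.27 for retained introns and -0.25, -0.25 and -0.17 for coding isoforms, the smallest shifts being in library 3. In 783 genes (15.5%) the retained-intron sum was higher in every HNRNPU library than in every input and the coding sum lower, while 41 genes (0.813%) had the opposite pattern. These counts were 787 and 32 with libraries centred on isoforms and 704 and 19 centred on genes. HNRNPH1 fRIP, set against the same inputs, had medians of 0.94 and -0.43.

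Tested one by one, 72466 isoforms gave 5571 enriched (7.69%) and 3690 depleted (5.09%), or 3875 (5.35%) and 5158 (7.12%) after centring. Retained-intron isoforms leaned the other way from coding ones. Of 15202 tested, 1495 (9.83%) were enriched and 452 (2.97%) depleted, while of 29945 protein-coding isoforms 1225 (4.09%) were enriched and 2154 (7.19%) depleted. After centring the counts were 974 against 659 for retained introns and 826 against 2969 for coding isoforms. As with genes, an isoform low in input could pass the filter through its fRIP values alone. No shares at a fixed input level are given for isoforms, so class and level cannot be told apart in these counts. Isoforms of the nonsense-mediated decay class, which carry an early stop codon and are mostly degraded in the cytoplasm, resembled coding isoforms, with 177 enriched and 352 depleted of 4863. Among 14351 retained-intron isoforms whose gene had a tested coding isoform, 1396 in 1087 genes were enriched, and the main coding isoform beside them was depleted for 362, not called for 997 and enriched for 37. Of the 438 depleted isoforms of this kind, the main coding isoform was depleted for 111 and enriched for 9, so the share beside a depleted coding isoform was much the same (25.9% of the enriched and 25.3% of the depleted). Isoform values come from dividing the fragments of a gene among overlapping models, so the isoforms of a gene are not independent of each other, and short reads leave this division uncertain.

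The 6 introns below are examples of intron sequence held by enriched isoforms. They are all single introns spanned whole by an enriched retained-intron isoform, and they were picked after their values were seen. The isoforms also differ from the coding ones elsewhere, as in DNM2, where the retained-intron isoform has 7 exons and the coding isoform 20 introns, so the isoform FPKM does not place the gain at the intron shown. Each sequence below gives, 5′ to 3′ on the strand of the gene, 8 exon bases and 16 intron bases at the 5′ splice site, or 16 intron bases and 8 exon bases at the 3′ splice site, with the first and the last pair of intron bases in capitals. They were read from GRCh37 (hg19) with the exon bounds of GENCODE v44.
RPL18 5′ splice site: aactgaagGTgagctggcgggggc
RPL18 3′ splice site: ttgtcctctccaccAGgtatgtgc
DNM2 5′ splice site: agatcctgGTaagtacatgcttag
DNM2 3′ splice site: gcgcgctttcccccAGgtgatccg
TFPI 5′ splice site: agatggtcGTaagtttatttctta
TFPI 3′ splice site: ctgtatttttttccAGcgaatggt
SLC2A3 5′ splice site: taagcagaGTgagtatccttcaca
SLC2A3 3′ splice site: ttcttcttttcaccAGtcctccag
EGLN2 5′ splice site: acgttaagGTaggggtgagggtga
EGLN2 3′ splice site: tttggcctgcccccAGgtgcatgg
RREB1 5′ splice site: aaatggagGTaatcagcagtgtgg
RREB1 3′ splice site: aatttccaattttcAGttttatag

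All 6 introns begin with GT and end with AG, as most introns do, and their class was not determined. RPL18 encodes a protein of the large ribosomal subunit, and its intron 3 of 5 (chr19:49119460-49119982, minus strand, 523 bases) is kept in an isoform that held 27.6, 21.1 and 39.8 FPKM in HNRNPU fRIP and 2.87, 2.14 and 1.55 FPKM in input. The groups were far apart, and the log2 fold change was 3.23 (standard error 0.55, limma adjusted p = 0.00106). The main coding isoform of RPL18 stood at 176, 193 and 251 FPKM against 300.2, 281 and 313 FPKM, lower in every HNRNPU library but not called (-0.54, limma adjusted p = 0.206).

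SLC2A3, the glucose transporter GLUT3, keeps intron 5 of 9 (chr12:8082468-8083075, minus strand, 608 bases) in an isoform with 11.8, 14.1 and 13.9 FPKM against 3.69, 2.91 and 2.75 FPKM in input (log2 fold change 1.80, standard error 0.28, limma adjusted p = 0.000609). Its coding isoform was depleted, with 6.83, 9.51 and 5.22 FPKM against 21.6, 22.9 and 24.0 FPKM (-1.57, limma adjusted p = 0.00092). The order of the isoforms was thus turned around, with the intron-bearing form the higher in each HNRNPU library and the lower in each input. TFPI, an inhibitor of blood coagulation, keeps intron 5 of 7 (chr2:188348944-188349537, minus strand, 594 bases). Its retained-intron isoform was enriched (16.5, 18.9 and 25.3 FPKM against 4.02, 4.77 and 4.47 FPKM), and its coding isoform was depleted by 2.45 on the log2 scale, from 13.6 to 19.1 FPKM in input to 13.4, 1.18 and near 0 FPKM.

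In the other 3 genes the coding isoform was not called. DNM2, a GTPase of endocytosis, keeps intron 14 of 20 (chr19:10919257-10922939, plus strand, 3683 bases), and the isoform rose from 4.80, 4.35 and 3.499 FPKM in input to 25.4, 26.2 and 19.0 FPKM. EGLN2, a prolyl hydroxylase that marks HIF proteins for decay, keeps intron 3 of 5 (chr19:41312580-41313042, plus strand, 463 bases), with 30.1, 34.2 and 22.7 FPKM against 7.72, 7.54 and 7.47 FPKM. RREB1, a zinc finger transcription factor, keeps intron 3 of 12 (chr6:7181480-7182102, plus strand, 623 bases), with 33.6, 28.7 and 24.0 FPKM against 8.70, 7.31 and 7.35 FPKM. No HNRNPU library overlapped with an input in these 3 isoforms, and their log2 fold changes were 2.23, 1.79 and 1.75. The GC content of the 6 introns ran from 30.0% in TFPI to 62.0% in EGLN2.

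**Figure D1:**
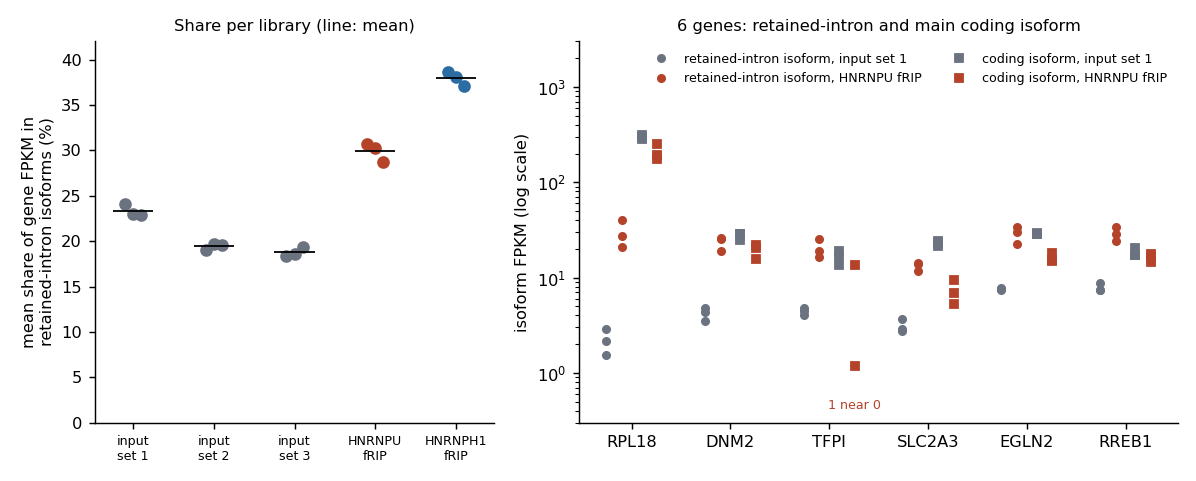
Left, the mean share (%) of gene FPKM held by retained-intron isoforms in each library over 6530 genes, with a line at the mean of each group of 3. Right, isoform FPKM on a log scale in each library for 6 genes, with circles for the retained-intron isoform and squares for the main coding isoform, in grey for input set 1 and red for HNRNPU fRIP (1 TFPI value near 0 is marked in words). In each of the 6 genes the red circles lie above the grey circles.

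Most of the strongest isoforms of this class cover part of an intron without spanning one. Of 165 that were enriched in both settings, held at least 10 FPKM in each HNRNPU library and more than in any input of set 1, and lay in a gene whose main coding isoform averaged at least 10 FPKM in input set 1, 124 spanned no whole intron of the main coding isoform and 29 spanned 1. Of the 124, 116 overlapped part of such an intron. HNRNPL, itself an hnRNP that regulates splicing, had the largest change of those described here. Its isoform rose from 1.66, 1.51 and 1.33 FPKM to 27.9, 28.7 and 26.7 FPKM (log2 fold change 3.53, standard error 0.27, limma adjusted p = 5.67e-06), while the HNRNPL gene as a whole had a log2 fold change of 0.01. In H2AFY, which encodes the histone variant macroH2A1, the retained-intron isoform was enriched (56.9, 45.002 and 53.7 FPKM against 11.8, 10.1 and 9.73 FPKM) and the coding isoform fell from 26.2, 36.3 and 32.4 FPKM to 0.656, 2.49 and 2.35 FPKM. PKM, a glycolytic enzyme and a well-studied case of alternative splicing, had an intron-bearing isoform at 38.9, 36.7 and 23.0 FPKM against 8.64, 5.67 and 5.45 FPKM, and its main coding isoform was depleted by 1.33 on the log2 scale. ENO1, another glycolytic enzyme, had 27.3, 38.3 and 27.2 FPKM against 5.30, 5.99 and 7.55 FPKM, and its coding isoform, at -0.90, was not called. These examples were taken from the strongest after their values were seen.

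Noncoding genes were enriched more often than mRNAs. Of 3910 tested lncRNAs, 766 (19.6%) were enriched and 41 depleted, and of 3606 pseudogenes 733 (20.3%) were enriched and 53 depleted, while of 12320 mRNAs 425 (3.45%) were enriched and 150 (1.22%) depleted. After centring, 409 lncRNAs (10.5%), 406 pseudogenes (11.3%) and 186 mRNAs (1.51%) were enriched, and 685 mRNAs (5.56%) were depleted. The median log2 fold changes were 0.44, 0.38 and 0.02. In HNRNPH1 fRIP, over the same inputs, 1409 of these lncRNAs, 752 of the pseudogenes and 2528 of the mRNAs were enriched. The classes differ in level, and in all 3 the share enriched was lowest at high level. At 1 to 5 FPKM in input set 2, 22.5% of 1652 lncRNAs, 22.2% of 1705 pseudogenes and 8.24% of 2111 mRNAs were enriched. At 20 FPKM and over it was 6.60% of 197, 1.80% of 111 and 0.662% of 5139. Among mRNAs, 38 (14.9%) of 255 single-exon genes were enriched against 387 (3.21%) of 12065 with more exons, and 3 and 147 were depleted. After centring, 16 single-exon mRNAs were enriched and 16 depleted (6.27% each), and of those with more exons 170 were enriched and 669 depleted. Single-exon mRNAs and the others were not compared at a fixed level.

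Where a noncoding gene lies went with its share of enrichment. Of 650 lncRNAs lying inside an intron of an mRNA gene on the opposite strand, 213 (32.8%) were enriched, and of 389 inside an intron on the same strand 114 (29.3%). Outside mRNA genes it was 230 of 1128 (20.4%), and where the exons overlapped an mRNA exon on the opposite strand it was 153 of 1393 (10.98%). Pseudogenes inside an intron on the same strand had the highest share, 208 of 613 (33.9%), against 223 of 1165 (19.1%) on the opposite strand and 289 of 1642 (17.6%) outside mRNA genes. After centring these shares were 18%, 18.8%, 10.7% and 5.31% for the lncRNA groups and 19.9%, 8.84% and 10.7% for the pseudogene groups. HNRNPH1 fRIP, as deposited over the same inputs, enriched 307, 179, 336 and 462 genes of the lncRNA groups in this order. In the pseudogene groups it enriched 110, 328 and 274. The groups differ in level, with a median in input set 2 of 0.873 and 1.17 FPKM for the intronic lncRNAs and 2.03 FPKM for those over exons. Within 1 to 5 FPKM the shares were 40.5%, 32.6%, 24.3% and 12.5% in the order given first. At 5 to 20 FPKM they were 17.9% of 39, 13.6% of 22, 15.9% of 132 and 7.6% of 250, so that the gap between intronic lncRNAs and those outside mRNA genes was not seen there, and at 20 FPKM and over the intronic groups held 6 and 5 lncRNAs, with 0 and 1 enriched.

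Few genes that host these intronic transcripts were enriched themselves, and few mRNAs were in general. The 114 enriched same-strand intronic lncRNAs lay in 98 host genes, of which 95 were tested, 7 (7.37%) were enriched and none was depleted. For the 208 pseudogenes, 7 of 181 tested hosts (3.87%) were enriched and none was depleted. These shares stand beside 9.89% of all genes and 3.45% of mRNAs. Fragments of the host's unspliced RNA fall on the same bases as a same-strand intronic gene, and whether the authors' counting used strand is not given in the sources used here, so neither kind of intronic gene can be told apart from the host's intron. A processed pseudogene also shares sequence with its parent gene.

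**Figure D2:**
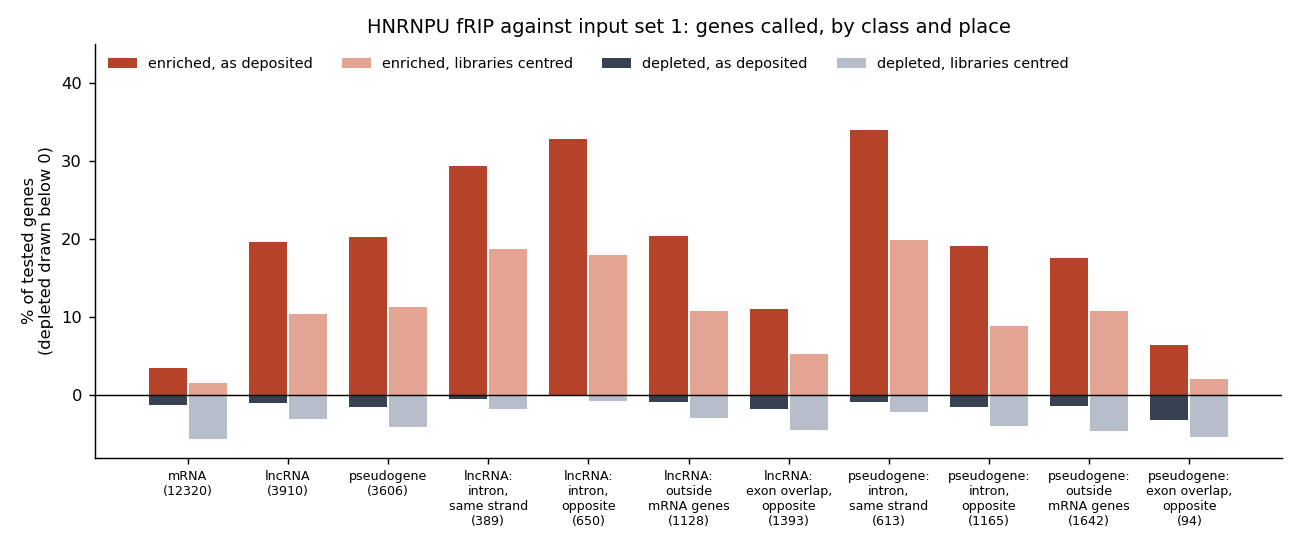
Share of tested genes (%) enriched (above 0) and depleted (below 0) in HNRNPU fRIP against input set 1, by gene class and by place relative to mRNA genes, with the number tested in brackets. Dark bars are values as deposited and light bars those with each library centred on its median. As deposited, pseudogenes inside introns on the same strand (33.9%) and lncRNAs inside introns (32.8% and 29.3%) stand above the mRNAs (3.45%), and pseudogenes inside introns on the opposite strand reach 19.1%.

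Of the nuclear lncRNAs reported here, KCNQ1OT1 was the most enriched. KCNQ1OT1 (chr11:2618538-2721233, minus strand) is an unspliced lncRNA of an imprinted domain, transcribed antisense inside KCNQ1. It held 20.9, 25.1 and 19.6 FPKM in HNRNPU fRIP and 3.34, 3.37 and 3.33 FPKM in input, a 5.23-fold enrichment (log2 fold change 2.39, standard error 0.13, limma adjusted p = 4.22e-07, and 2.08 after centring). The HNRNPU libraries lay well above inputs that hardly differed. HNRNPH1 fRIP had 15.1, 17.7 and 15.2 FPKM, below each HNRNPU library but with the difference under the threshold (log2 difference 0.42, limma adjusted p = 0.0164).

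MALAT1 localises to nuclear speckles, and NEAT1 is the scaffold of paraspeckles. MALAT1, among the most abundant RNAs, held 16786, 21744 and 16195 FPKM against 5083, 5471 and 5547 FPKM in input, a log2 fold change of 1.75 with no overlap. In the fit of all groups it was not called (limma adjusted p = 0.656), since it is listed at 0 in HNRNPH1 libraries 1 and 2 and at 24283 FPKM in library 3, which widens the shared spread. In a fit of HNRNPU and input alone, limma gave an adjusted p of 0.00145. NEAT1 stood at 229.9, 267 and 196 FPKM against 115, 127 and 127 FPKM, above input in each library but under the 2-fold threshold (log2 fold change 0.89, limma adjusted p = 0.00607). It was far higher in HNRNPH1 fRIP, with 1426, 1788 and 2424 FPKM, and the difference between the fRIPs was called (-3.00, limma adjusted p = 7.82e-08).

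Of 12 tested lncRNAs on a list of nuclear lncRNAs, 2 were enriched, KCNQ1OT1 and MEG3, and none was depleted. This is 16.7%, beside 9.89% of all genes and 19.6% of all lncRNAs. After centring 1 was enriched and against all 9 inputs 3, where 5.18% and 15.8% of all genes were enriched. MEG3, a maternally expressed imprinted lncRNA, had 14.9, 13.4 and 7.22 FPKM against 5.45, 3.91 and 4.08 FPKM (log2 fold change 1.19, limma adjusted p = 0.00903) and was not called after centring (0.88). H19, another imprinted lncRNA and not on the list, was depleted, with 1.36, 2.49 and 1.08 FPKM against 3.29, 7.03 and 6.68 FPKM (-1.32, limma adjusted p = 0.0115). Its size rests on the input set, as the 9 inputs ran from 3.29 to 39.5 FPKM and the log2 fold change against all of them was -2.63. It held 44.4, 82.5 and 117 FPKM in HNRNPH1 fRIP, and the difference between the fRIPs was -4.89 on the log2 scale (limma adjusted p = 8.66e-08), the most negative of the genes named by the rule.

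Small structured RNAs did not move as a group. TERC, the RNA template of telomerase, was enriched over input set 1, with 87.3, 121 and 101 FPKM against 29.6, 20.2 and 22.6 FPKM (log2 fold change 2.05, standard error 0.16, limma adjusted p = 2.30e-06). This rests on the input set, as the 9 inputs ran from 20.2 to 107 FPKM and against all of them TERC was not called (0.78, limma adjusted p = 0.184). RPPH1, the RNA of RNase P, stood at 775, 846 and 665 FPKM against 1602, 1317 and 1347 FPKM, below input in each library but not past 2-fold (-0.90, and called at -1.21 after centring). RN7SL1, the RNA of the signal recognition particle, and RMRP, that of RNase MRP, had log2 fold changes of -0.63 and -0.32, neither called. Of 17 host genes of small nucleolar RNAs, SNHG3 (log2 fold change 1.03) and SNHG17 (1.16) were enriched as deposited, 11.8% beside 9.89% of all genes, and SNHG9 was depleted by 2.80 on the log2 scale. After centring none was enriched and 3 were depleted (SNHG8, SNHG9 and SNHG15), and against all 9 inputs SNHG17 was enriched and SNHG8 and SNHG9 were depleted. Of all genes 1.23% were depleted as deposited, 4.74% after centring and 3.08% against all 9 inputs, where 15.8% were enriched.

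**Figure D3:**
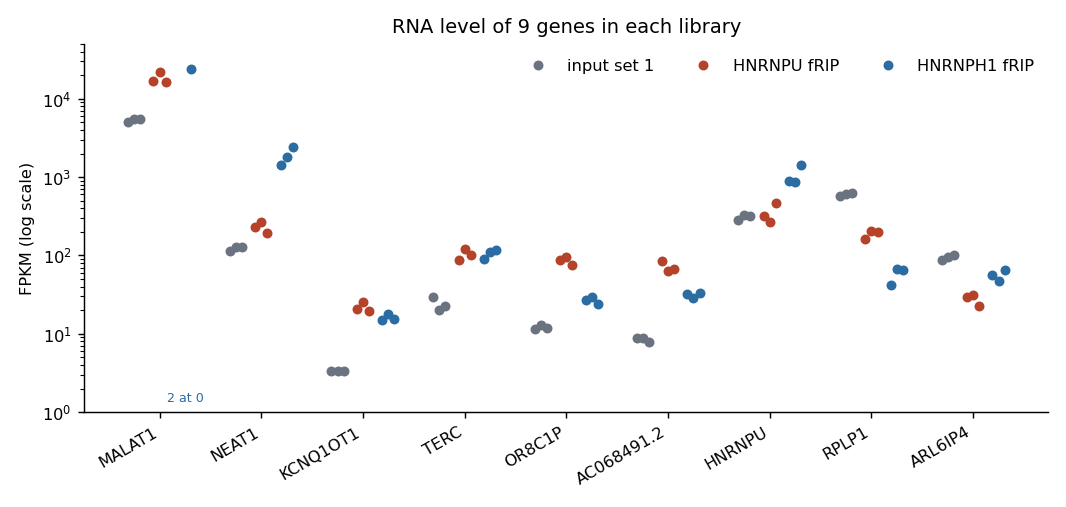
FPKM on a log scale of 9 genes in each of the 3 input set 1 (grey), 3 HNRNPU fRIP (red) and 3 HNRNPH1 fRIP libraries (blue), 1 point per library, with 2 values at 0 marked in words. MALAT1, KCNQ1OT1, OR8C1P and AC068491.2 lie above input in every HNRNPU library, RPLP1 and ARL6IP4 lie below it, and the HNRNPU gene overlaps with it.

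The largest gene-level enrichments were in little-studied noncoding genes. AC068491.2 (chr2:112022860-112037457, plus strand), a lncRNA outside mRNA genes, held 85.5, 64.2 and 67.4 FPKM against 8.73, 8.77 and 7.93 FPKM, a 7.68-fold enrichment (log2 fold change 2.94, standard error 0.17, limma adjusted p = 4.22e-07). CTC-459F4.1 (chr19:28248092-28251757, minus strand), another intergenic lncRNA, held 30.1, 41.5 and 43.4 FPKM against 4.13, 4.72 and 4.88 FPKM. RP11-415F23.3 (chr3:16380815-16381378, plus strand), inside an intron of OXNAD1 on the same strand, held 39.0, 30.2 and 38.7 FPKM against 4.66, 3.94 and 5.31 FPKM. In all 3 genes every HNRNPU library lay far above every input, and each was also higher in HNRNPU than in HNRNPH1 fRIP (log2 differences of 1.17, 1.57 and 1.95, limma adjusted p = 4.94e-05, 0.000373 and 4.09e-06).

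The other 7 genes that the naming rule gave as most enriched rest on fewer fragments or on shared sequence. RP11-1094M14.1 and AC005394.1 are listed at 0 in each input of set 1, at 17.9, 19.6 and 6.48 FPKM and at 23.9, 5.98 and 3.00 FPKM in HNRNPU fRIP, and their HNRNPU values spread widely. CTC-786C10.2 (log2 fold change 2.88), inside an intron of GSE1 on the opposite strand, RP11-210L7.1 (2.72) and RP11-572C15.3 (2.77) are short pseudogenes. RP11-572C15.3 lost its call after centring and when any single HNRNPU or set 1 library was left out. OR8C1P (2.73) is described with the olfactory loci. ANKHD1-EIF4EBP3 (2.69), with 15.8, 5.66 and 14.4 FPKM against 0.0261, 1.55 and 1.44 FPKM, is a readthrough of neighbouring genes, and its fragments cannot be told apart from those of ANKHD1.

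Olfactory receptor loci stood out among the enriched genes, and they were looked at after this was seen. These genes encode odorant receptors, and lie in clusters. Of 722 loci in the table, 80 passed the filter on low values, and 48 of these were enriched and none depleted, with 41 enriched after centring, beside 9.89% and 5.18% of all genes. Since the loci were picked because they stood out, nothing is read from that gap. Some loci passed the filter through their fRIP values, and of the 49 with a mean of at least 1 FPKM in input set 2, 39 were enriched (36 after centring). Related loci share sequence, so values of single loci are uncertain. In the cluster that holds the OR8 genes (chr11:124054052-124472134), 19 of 21 tested loci were enriched (18 after centring), with a median log2 fold change of 1.82. OR8C1P held 87.7, 95.6 and 74.9 FPKM against 11.5, 13.0 and 11.8 FPKM (log2 fold change 2.73, standard error 0.19, limma adjusted p = 1.27e-06), OR8B5P held 69.2, 104 and 64.3 FPKM against 11.3, 12.3 and 12.2 FPKM, and OR8D1 held 78.9, 89.8 and 68.4 FPKM against 17.9, 17.5 and 18.4 FPKM. Each HNRNPU library lay well above the inputs for these loci. The exceptions were OR8G3P (0.61) and OR8G5 (-0.06), which were not called.

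In the region of chromosome 11 that holds the beta-globin genes (chr11:3412010-6943225), 18 of 28 tested olfactory loci were enriched (17 after centring). The run from OR51AB1P to OR52D1 (chr11:5312991-5510979), with bounds set after the values were seen, held 12 enriched loci of 13 (11 after centring), and its tested neighbours, OR52A5 on one side and OR52V1P, OR52H1, OR52B5P and OR52B6 on the other, were not called. OR52D1 held 127, 125 and 159.6 FPKM against 28.3, 39.0 and 37.6 FPKM, and OR51J1 held 40.0, 30.2 and 50.4 FPKM against 9.58, 9.48 and 10.2 FPKM. OR51B4 was the exception, with 49.2, 51.3 and 52.5 FPKM against 41.9, 46.3 and 47.2 FPKM (log2 fold change 0.17, limma adjusted p = 0.25). HNRNPH1 fRIP, set against the same inputs, enriched 9 of these 13 loci with a median of 1.45 against 1.61 for HNRNPU, and 4 of 21 loci in the OR8 cluster with a median of 0.57, beside 23.9% of all genes enriched in HNRNPH1 fRIP. Elsewhere in the genome, 11 of 31 tested loci were enriched in HNRNPU fRIP (6 after centring). With at least 1 FPKM in input set 2, the counts were 18 of 20 in the OR8 cluster, 16 of 20 in the region of the beta-globin genes and 5 of 9 elsewhere. Against all 9 inputs, 20 loci of the OR8 cluster were enriched.

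**Figure D4:**
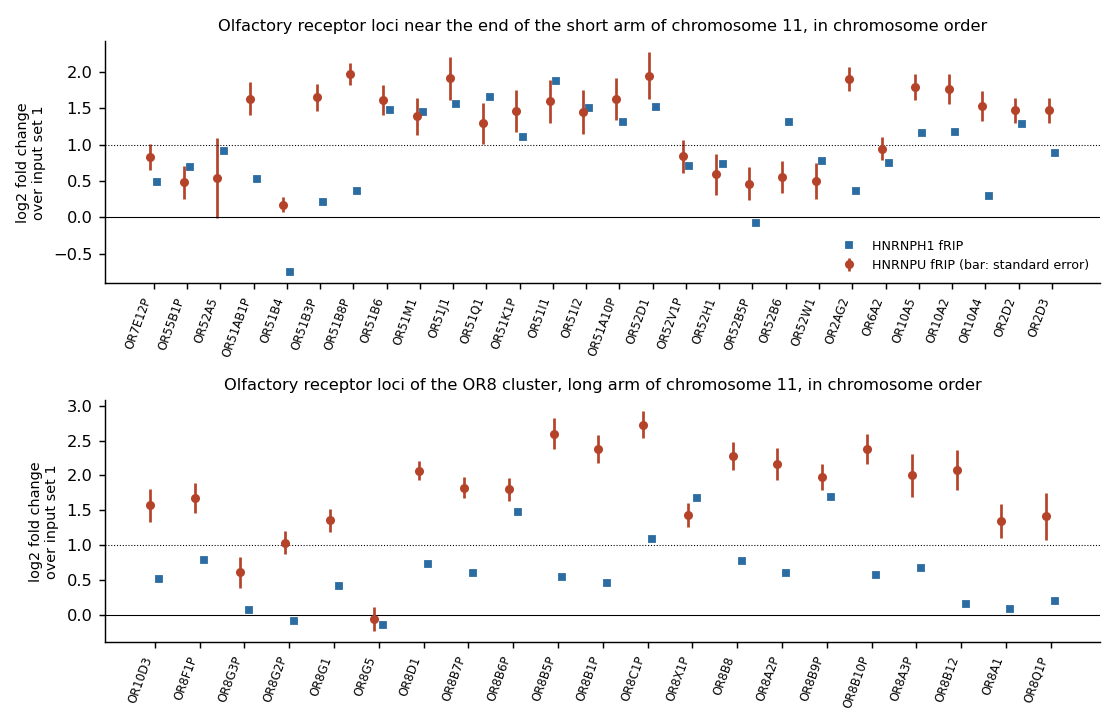
Log2 fold change over input set 1 of olfactory receptor loci in chromosome order, for HNRNPU fRIP (red circles, bars of 1 standard error) and HNRNPH1 fRIP (blue squares), with a dotted line at the threshold of 1. In the lower panel 19 of 21 HNRNPU points lie above the dotted line, and 4 HNRNPH1 points do. In the upper panel the points from OR51B6 to OR52D1 lie above it for both proteins.

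Messenger RNAs for the translation and respiration machinery were among the depleted genes. Of 83 tested mRNAs of cytosolic ribosomal proteins, 14 were depleted and none enriched, against 1.23% depleted over all genes, and 25 were depleted after centring and 26 against all 9 inputs, where 4.74% and 3.08% of all genes were depleted. Their median log2 fold change was -0.46, and single members ran from -1.68 (RPLP1) to 0.68 (RPS3A). RPLP1, of the ribosomal stalk, held 160.2, 203 and 200.1 FPKM against 578, 612 and 618 FPKM (limma adjusted p = 6.01e-06), so that every HNRNPU library was below every input. RPL39 (-1.45) and RPS2 (-1.41) followed. RPS3A stood at 851, 898 and 926 FPKM against 528, 573 and 569 FPKM and was not called. Many ribosomal protein genes have processed pseudogenes that share reads with them. Of 97 nuclear-encoded respiratory chain mRNAs, 4 were depleted (16 after centring and 29 against all 9 inputs, beside the same shares of all genes), among them ATP5G2 of ATP synthase (-1.21) and NDUFB7 of complex I (-1.21), and 1, COX7A1, was enriched as deposited. Of 5 equal groups of mRNAs by level in input set 2, the highest had 2.81% depleted as deposited and 11.3% after centring. By gene length, the shortest of 5 groups had 3.46% and 13.1%. The respiratory chain shares, 4.12% and 16.5%, lie near these, and the ribosomal protein shares, 16.9% and 30.1%, lie above them.

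Of 27 tested RNAs made in the mitochondrion, 4 (14.8%, beside 9.89% of all genes) were enriched as deposited (MT-ATP8, MT-CO2, MT-CYB and MT-ND5, log2 fold changes of 1.26, 1.20, 1.16 and 1.05), none was depleted, and none was called after centring. Against all 9 inputs 5 were enriched and 1 depleted, beside 15.8% and 3.08% of all genes. MT-CO2, a subunit of cytochrome c oxidase, held 857, 1007 and 1048 FPKM against 453, 408 and 405 FPKM. Of 33 tested replication-dependent histone mRNAs, which end in a stem-loop instead of a poly(A) tail, 6 (18.2%) were enriched as deposited and none after centring, and against all 9 inputs 2 were enriched and 2 depleted. HIST1H4C held 172, 178 and 184 FPKM against 81.2, 69.5 and 64.4 FPKM (log2 fold change 1.31, limma adjusted p = 7.91e-06), but the 9 inputs ran from 64.4 to 272 FPKM and against all of them it was not called (0.24). Histone genes are near-identical copies, so single values are uncertain.

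Few mRNAs of the nuclear RNA machinery were called, and few mRNAs were in general (3.45% enriched and 1.22% depleted as deposited). None of 27 hnRNP mRNAs was called by limma (1 higher and 4 lower at an unadjusted p under 0.05), and HNRNPU itself held 323, 268 and 472 FPKM in its own fRIP against 282, 326 and 321 FPKM in input (log2 fold change 0.15, limma adjusted p = 0.639), with the groups overlapping. HNRNPUL2, a relative of HNRNPU, had 34.1, 29.8 and 32.4 FPKM against 18.2, 18.3 and 19.1 FPKM, above each input but under 2-fold (0.76). HNRNPU-AS1, a noncoding RNA named for the antisense strand of HNRNPU, was at 0.54 and not called. None of 12 SR protein mRNAs, 4 CLK kinase mRNAs, 14 mRNAs of snRNP assembly, 17 nuclear matrix and lamina mRNAs, 10 cohesin and CTCF mRNAs, 7 mRNAs of the 7SK complex and 38 proteasome mRNAs was called by limma as deposited. At an unadjusted p under 0.05, 1 SR protein mRNA was higher and 3 were lower, and the counts were 1 and 1 for CLK kinases, 0 and 0 for snRNP assembly, 3 and 6 for matrix and lamina, 4 and 1 for cohesin and CTCF, 2 and 2 for the 7SK complex and 0 and 14 for the proteasome. Against all 9 inputs, 1 mRNA of the 7SK complex was enriched, and 1 SR protein mRNA, 1 matrix or lamina mRNA and 6 proteasome mRNAs were depleted. After centring 2 SR protein mRNAs (SRSF7 and SRSF11), CLK1, 2 lamina-related mRNAs (LMNA and BANF1) and 3 proteasome mRNAs were depleted. Of 33 mRNAs of the U1, U2 and tri-snRNP particles, 2 were depleted, SF3B5 (-1.51) and PRPF31 (-1.01), with 4 depleted after centring and 7 against all 9 inputs. Over all genes 1.23%, 4.74% and 3.08% were depleted in these settings, and 15.8% were enriched against all 9 inputs. At an unadjusted p under 0.05, 13 were lower and 2 higher.

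Of 208 tested zinc finger mRNAs of chromosome 19, 11 were enriched and 1 depleted, or 5.29% enriched beside 9.89% of all genes and 3.45% of mRNAs. After centring 5 were enriched and 2 depleted, and against all 9 inputs 23 and 1, where 5.18% and 15.8% of all genes were enriched. ZNF420 held 17.1, 18.7 and 14.5 FPKM against 3.48, 3.16 and 5.02 FPKM, and ZNF154 held 14.4, 11.5 and 11.7 FPKM against 3.19, 2.87 and 3.09 FPKM. Both were well above input (log2 fold changes of 1.87 and 1.74, limma adjusted p = 2.09e-05 and 7.57e-06). Of 58 CEP and KIF mRNAs, KIF26B alone was called (1.36), as it was after centring. Of 17 immediate early and unstable mRNAs, JUND, a subunit of AP-1, was depleted, with 12.5, 13.1 and 11.3 FPKM against 27.2, 25.3 and 26.1 FPKM, and 3 of the 17 were depleted after centring, beside 1.23% and 4.74% of all genes depleted in these settings. Of 3 spliceosomal snRNAs, RNU12, the U12 RNA of the minor spliceosome, was enriched as deposited only (7.02, 8.26 and 8.57 FPKM against 2.53, 3.74 and 3.502 FPKM).

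None of 6 globin mRNAs was called by limma over input set 1 (0 at an unadjusted p under 0.05), although their median log2 fold change was -0.83 and 2, HBE1 and HBG1, were depleted against all 9 inputs, and their levels varied widely within each group. HBG2, a gamma globin, held 131, 221 and 951 FPKM in HNRNPU fRIP and 178, 901 and 944 FPKM in input. Library 1 of both groups was low and library 3 of both was high. The naming rule gave 3 mRNAs among the most depleted genes. ARL6IP4, a protein linked to splicing speckles, held 29.5, 31.4 and 22.6 FPKM against 87.3, 96.8 and 102 FPKM (log2 fold change -1.75, limma adjusted p = 2.54e-06), and KAT2A, the histone acetyltransferase GCN5, held 7.57, 6.11 and 6.18 FPKM against 25.2, 24.1 and 24.4 FPKM (-1.75, adjusted p = 4.13e-05). RSC1A1, with 3.91, 0.0194 and 7.02 FPKM against 9.45, 11.5 and 10.3 FPKM, was depleted by 1.73 but lost its call without HNRNPU library 2 (-0.86). Of the 7 noncoding genes named as most depleted, RP11-208G20.2, RP11-583F2.6 and RP11-109M17.2 are listed at 0 in all 3 HNRNPU libraries. The call of RP11-208G20.2 rests on input set 1, as the 9 inputs ran from 0 to 346 FPKM and against all of them it was not called (limma adjusted p = 0.157).

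Long genes and short genes differed in HNRNPU fRIP, and composition went the opposite way from HNRNPH1. The following Spearman correlations are across 12288 mRNAs, which share the libraries and the inputs, and are given as a description. The log2 change over input correlated with the length of the gene in the genome by 0.1995 to 0.223 in the HNRNPU libraries (mean 0.210) and by -0.150 to -0.141 in those of HNRNPH1. For GC content of the main transcript the values were -0.105, -0.153 and -0.350 for HNRNPU libraries 1, 2 and 3 and 0.430, 0.377 and 0.369 for HNRNPH1. For the number of GGG words per kb of the main transcript, counted on the RNA strand with overlaps, they were -0.291 to -0.0678 and 0.460 to 0.503. Library 3 of HNRNPU was the most negative for GC and the least dependent on level, with -0.0972 for the level in input set 2 against -0.372 and -0.382 in libraries 1 and 2.

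Split into 5 equal groups by GGG words, from a median of 7.48 to one of 32.6 per kb, mRNAs had a median log2 change in HNRNPU fRIP that moved from -0.04 to -0.26 relative to all genes, with 89 enriched and 11 depleted in the first group and 68 and 70 in the last. In HNRNPH1 fRIP, over the same inputs, it moved from -0.77 to 0.63, with 106 enriched and 532 depleted in the first group and 1185 and 47 in the last. By gene length, from a median of 5240 to one of 149090 bases, HNRNPU moved from -0.32 to 0.02 and HNRNPH1 from 0.14 to -0.34. In the longest group 105 mRNAs were enriched and 1 was depleted in HNRNPU fRIP, and in the shortest 120 and 85. In 3899 lncRNAs the HNRNPU correlations had means of 0.03 for length, -0.05 for GGG words and -0.179 for level. GC content, GGG words, length and level go together across genes, and their separate parts were not tested.

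**Figure D5:**
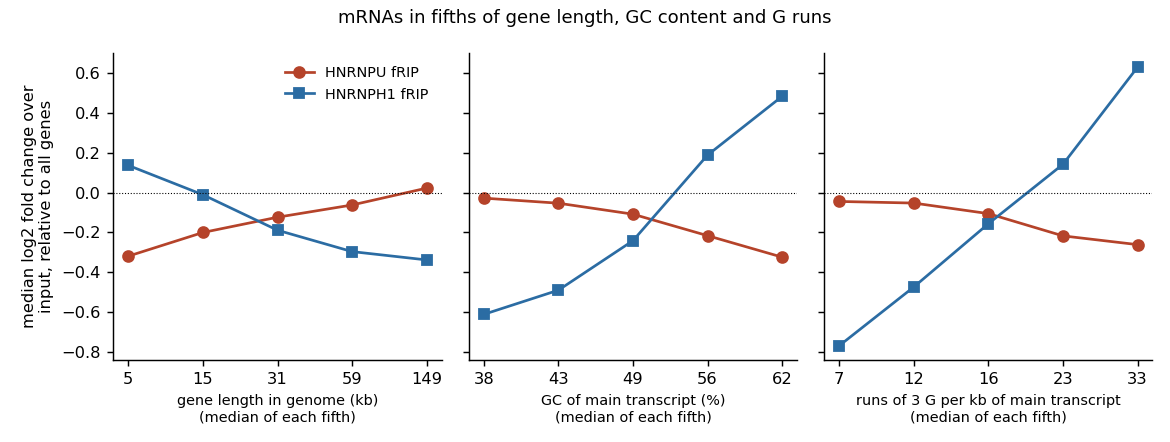
Median log2 fold change over input set 1, relative to the median of all genes, of mRNAs split into 5 equal groups by gene length in the genome (kb), GC content (%) and runs of 3 G per kb of the main transcript, for HNRNPU (red circles) and HNRNPH1 (blue squares). The horizontal axis names the median of each group. The lines cross in each panel, HNRNPU rising with length and declining with GC and G runs.

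Set directly against HNRNPH1 fRIP, with no input in the contrast, 2010 genes (9.64%) were higher in HNRNPU fRIP and 3617 (17.3%) lower, or 2580 and 3001 after centring, with 35.7% and 46.2% of calls being higher. Ribosomal protein mRNAs stood out, with 61 of 83 higher in HNRNPU fRIP and 1 lower. RPS3A held 851, 898 and 926 FPKM in HNRNPU and 59.3, 77.1 and 72.7 FPKM in HNRNPH1 fRIP, a 12.7-fold difference (log2 difference 3.67, standard error 0.13, limma adjusted p = 2.42e-10). Of 33 histone mRNAs, 23 were higher and 1 lower, and of 97 respiratory chain mRNAs 33 were higher and 7 lower. In the other direction, 15 of 27 hnRNP mRNAs and 5 of 7 mRNAs of the 7SK complex were lower in HNRNPU fRIP and none higher. HNRNPH1 mRNA itself held 281, 297 and 324 FPKM in HNRNPU and 1379, 1207 and 1414 FPKM in HNRNPH1 fRIP (log2 difference -2.14, limma adjusted p = 1.20e-08). By class, 2319 mRNAs, 735 lncRNAs and 379 pseudogenes were lower in HNRNPU fRIP, and 1197, 232 and 491 were higher.

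The remaining genes named by the rule for this contrast were RP11-572C15.3 (log2 difference 4.27), COMMD3-BMI1 (3.82), ANKHD1-EIF4EBP3 (3.55) and RP11-270C12.3 (3.43) on the HNRNPU side. RP11-270C12.3 overlapped between HNRNPU fRIP and input. COMMD3-BMI1 and ANKHD1-EIF4EBP3 are readthroughs. On the HNRNPH1 side, beside H19, they were RP11-585F1.6 (-4.21), CTD-2587H19.2 (-4.17), AC005363.9 (-3.98) and RP11-384A12.1 (-3.87), all short noncoding genes. AC005363.9 lies in an intron of RPS2 and CTD-2587H19.2 in an intron of TTYH1, both on the same strand. RP11-384A12.1 lies in an intron of ATP13A3 on the opposite strand.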

How the data were processed

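K562 RNA was measured in 3 HNRNPU fRIP libraries and 3 input libraries, with 3 HNRNPH1 fRIP libraries and 6 further inputs for comparison. The authors used ribosomal RNA depletion, TopHat alignment to hg19 and Cuffdiff with GENCODE 18, and the deposited gene and isoform FPKM tables are used here. The tables are normalized for transcript length and library size. The columns of fold changes and p-values in the authors' comparison tables were not used, and their pooled input FPKM served to find the nearest input set. A version given in the submitters' processing notes is CASAVA 1.4, and whether counting used strand is not given in the sources used here.

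FPKM were transformed as log2(FPKM + 1), and log2 fold changes on this scale understate the change of low genes. Genes or isoforms with 1 FPKM in at least 3 of 15 libraries were fitted with limma 3.58.1 (R 4.3.3) in 5 groups, leaving 10 residual degrees of freedom, with Benjamini-Hochberg adjustment over all features. A call needed a log2 fold change beyond 1 in size and an adjusted p below 0.05. Shares were compared with an exact permutation test over libraries (numpy 2.4.6), and Spearman correlations were computed with scipy 1.17.1. Classes and positions came from GENCODE 44 on hg19, in which 46055 of 48453 gene IDs and 172143 of 185661 transcript IDs matched. The depth was estimated from the steps of low FPKM values, assuming a fragment length of 150 bases, and 92.0% to 95.5% of low values lay within 0.15 of a whole number of fragments. The fit was tested on simulated data. The study gives the libraries of a group as biological triplicates.

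Genes were named as HNRNPU, HNRNPH1 and HNRNPU-AS1, as the 10 largest changes in each direction over input and the 5 in each direction over HNRNPH1 (called, matched to the annotation, not overlapping and at a mean of 10 FPKM or more in the higher group), and as up to 4 members per list with the largest changes. Members that a sentence needed for their role were added. The gene lists, the tests and the libraries were chosen with earlier results of these data known, and the introns, olfactory loci, sequence words, level bands and positions were chosen after values were seen. The alternatives were pseudocounts of 0.1 and 0.5 FPKM, other filters, centring of each library on its median and other input sets. Further alternatives were a fit of the compared groups alone, a replicate block, and leaving out each library of the groups compared. Genes of the X inactivation centre, Y-linked genes and 1 marker gene are not reported here.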

Additional observations from a re-analysis of the deposited data

Results flagged for a closer look

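Against input set 1, HNRNPU and HNRNPH1 fRIP changed some genes in opposite directions, and in each gene counted here the difference between the fRIPs was itself called by limma. The contrasts share the 3 inputs and a single fit. A gene called beyond the threshold in opposite directions must also differ beyond it between the fRIPs, so this call adds no separate support. In this way, 6 genes were enriched in HNRNPU and depleted in HNRNPH1 fRIP. They were COMMD3-BMI1, AL356740.1, CTD-2199O4.3, TEX15, HIST2H2AB and CENPF. Their log2 fold changes in HNRNPU fRIP over input ran from 1.03 to 1.38. After centring 1 of them, CTD-2199O4.3, was still called in HNRNPU fRIP, the others running from 0.72 to 0.98. Against all 9 inputs 4 were called in HNRNPU fRIP. CENPF, a kinetochore protein, held 117, 108 and 156 FPKM in HNRNPU fRIP, 58.9, 63.4 and 61.2 FPKM in input and 24.1, 23.8 and 36.8 FPKM in HNRNPH1 fRIP, so that the 3 groups did not overlap (log2 difference 2.14, limma adjusted p = 2.88e-07). TEX15, a germ cell gene, held 34.9, 27.2 and 29.4 FPKM, 16.3, 12.1 and 11.6 FPKM, and 7.52, 5.69 and 4.49 FPKM in the same order. COMMD3-BMI1, a readthrough, was not called against all 9 inputs (0.43), and HIST2H2AB was not either (-0.23).

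The opposite pattern held for 13 genes, namely H19, PTP4A3, APH1A, MUC1, EGFL8, B4GALNT4, SAPCD1-AS1, CPNE7, CTD-2517M22.17, RP11-183C12.1, PIH1D1, DVL1 and SKIV2L, of which 9 are mRNAs. All 13 were depleted in HNRNPU fRIP after centring, and 9 of them against all 9 inputs. APH1A, a subunit of gamma-secretase, held 19.7, 19.1 and 20.1 FPKM in HNRNPU fRIP, 43.5, 44.5 and 44.8 FPKM in input and 165.5, 172 and 167 FPKM in HNRNPH1 fRIP, with little spread within any group (log2 difference -3.03, limma adjusted p = 9.19e-11). PTP4A3, a phosphatase, held 16.3, 12.2 and 19.6 FPKM, 25.8, 37.9 and 38.4 FPKM, and 118, 133 and 210.3 FPKM in the same order. PIH1D1, a subunit of a cochaperone of snoRNP assembly, held 38.03, 39.4 and 39.0 FPKM, 80.9, 83.8 and 88.7 FPKM, and 216, 154 and 210.5 FPKM.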

How the results depend on the processing

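The counts moved with the inputs, the filter and centring. Enriched genes were 815 with a mean of at least 5 FPKM, 1079 after centring, 3284 against all 9 inputs, 3852 against set 2 and 4048 against set 3, and depleted genes were 387 with a pseudocount of 0.1 FPKM and 988, 643, 1007 and 1050 under the last 4 settings. Enriched isoforms were 1918 (mean of 5 FPKM), 9119 (all 9 inputs), 10231 (set 2) and 11852 (set 3), and depleted isoforms 1620, 5579, 6643 and 7198. Genes lower than in HNRNPH1 fRIP were 2338 with a mean of 5 FPKM, where fewer genes are tested. The retained-intron difference was 9.37 points against all 9 inputs, 10.4 against set 2 and 11.2 against set 3.

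Leaving out each library in turn gave 1829 to 2564 enriched and 235 to 322 depleted genes, 4763 to 6617 and 2893 to 3987 isoforms, 1992 to 2096 genes higher and 3378 to 3803 lower than in HNRNPH1 fRIP, and a retained-intron difference of 6.17 to 7.21 points. Changes of sign were limited to genes that were not called or to histones. The log2 fold change of HNRNPU was -0.16 after centring and ran from -0.074 without HNRNPU library 3 to 0.34. That of EPCAM was -0.30 after centring and -0.25 against all 9 inputs, and ran from -0.11 to 0.084. HIST1H4B (-0.10) and HIST2H2AB (-0.23) reversed against all 9 inputs, OR51B4 (-0.14) after centring, and OR8G5 (0.33) against all 9 inputs, with -0.17 to 0.011 when a library was left out. Of 88 named changes, 10 lost and 8 gained a call after centring, among the lost MEG3, SNHG3, SNHG17 and RNU12, and of the 78 that use input, 7 lost and 8 gained it against all 9 inputs, among the lost TERC, HIST1H4C, HIST1H4B and HIST2H2AB. The cause of these moves was not tested.

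With the replicate number as a block, the counts were 2076 enriched and 261 depleted genes, 5584 and 3711 isoforms, and 2034 genes higher and 3643 lower than in HNRNPH1 fRIP, and the retained-intron difference stayed at 6.60 points (exact paired permutation p = 0.25, the smallest for 3 pairs). Same-numbered HNRNPU and input libraries had correlations of their deviations of 0.274, 0.029 and 0.137 across genes, and HNRNPU library 3 correlated best with input 2 (0.187), so the numbers were not taken to pair the libraries. The HNRNPU libraries hold fewer fragments than the inputs, which limits low genes and isoforms most.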
